A study of Mus musculus with 8 samples.

Results

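The genes described are 8 members of the Nodal signalling pathway: the ligand genes Nodal and Gdf3, the co-receptor gene Tdgf1, the receptor genes Acvr1b and Acvr2b, the inhibitory gene Smad7 and the antagonist genes Lefty1 and Lefty2. They were taken by symbol from the platform annotation, with the probe set of the highest mean for each gene. The members and lists were chosen with earlier results of these data known. Their counts and medians beside those of all genes are therefore a description and no independent support. All 8 were found, each with 1 probe set, among 19938 genes. With vitamin C, the RNA of 6 of the 8 rose from day 3 to day 6 (5.25% of all genes rose), and most steeply that of Lefty1 and Lefty2, which about doubled per day (slopes of 1.04 ± 0.11 and 1.02 ± 0.07 on the log2 scale per day, moderated SE, 4 arrays per treatment). Without vitamin C, 2 of the 8 rose, Lefty1 and Tdgf1 (0.782% of all genes rose). The difference between treatments grew with day for Lefty2, from -0.06 on day 3 to 2.17 on day 6 on the log2 scale. No member passed the test of a difference taken over all days.

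The cells were a mouse pre-iPSC line, MaF pre-iPSC9P2 in the labels, which is 1 clone (C9). Pre-iPSCs are partly reprogrammed somatic cells, short of the pluripotent state. The clone was kept on feeders in medium for mouse embryonic stem cells, and from day 2 the medium held 50 µg/ml vitamin C (Vc) or none. RNA was taken on days 3, 4, 5 and 6 after trypsin and removal of feeder cells, and 1 Affymetrix whole-transcript array was run for each treatment and day, which gave 4 untreated arrays and 4 with vitamin C. The labels name no genotype, and both groups share the clone, the medium and the feeders. A difference on a single day has no replicate. Whether each day had a culture of its own is not in the labels. The p-values therefore cover the spread among these arrays alone, which may be technical.

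Nodal is a secreted ligand of the TGF-beta family, and Gdf3 is a related ligand that can act through the same receptors. Both need a membrane-bound co-receptor such as Cripto, encoded by Tdgf1. They signal through a type II receptor such as that of Acvr2b and the type I receptor ALK4, encoded by Acvr1b. The receptors phosphorylate Smad2 and Smad3, which enter the nucleus with Smad4 and act there with partners such as Foxh1. Lefty1 and Lefty2 are secreted antagonists and at the same time target genes of the pathway, so that in the mouse embryo they form a feedback loop. Smad7 is an inhibitory Smad that acts at the receptors. In mouse embryonic stem cells, Lefty1, Lefty2, Tdgf1 and Gdf3 are known as genes of the pluripotent state.

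Over 28853 probe sets, pairs of arrays correlated with 0.977 to 0.994, and array medians ran from 4.33 to 4.40. Pou5f1, a transcription factor gene of pluripotent cells, lay between 11.9 and 12.1 on all 8 arrays. Whether its probe set read the endogenous gene alone was not tested. Nanog, another such gene, ran from 5.53 to 6.77 in untreated arrays and from 7.03 to 8.87 with vitamin C. The mean of 10 markers of pluripotent cells ran from 6.09 to 6.61 in untreated arrays and from 6.70 to 8.01 with vitamin C. The mean of 14 markers of feeder cells or fibroblasts ran from 6.04 to 7.18 in untreated arrays and from 5.94 to 6.64 with vitamin C, falling with day in both. Their summed linear values lay between 1481 and 3662 in untreated arrays and between 1267 and 2247 with vitamin C. RNA of such genes was thus still measured after feeder removal, and whether it came from feeder cells or from the clone was not tested. In such bulk samples fewer cells of a type and less RNA per cell cannot be told apart.

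**Figure D1:**
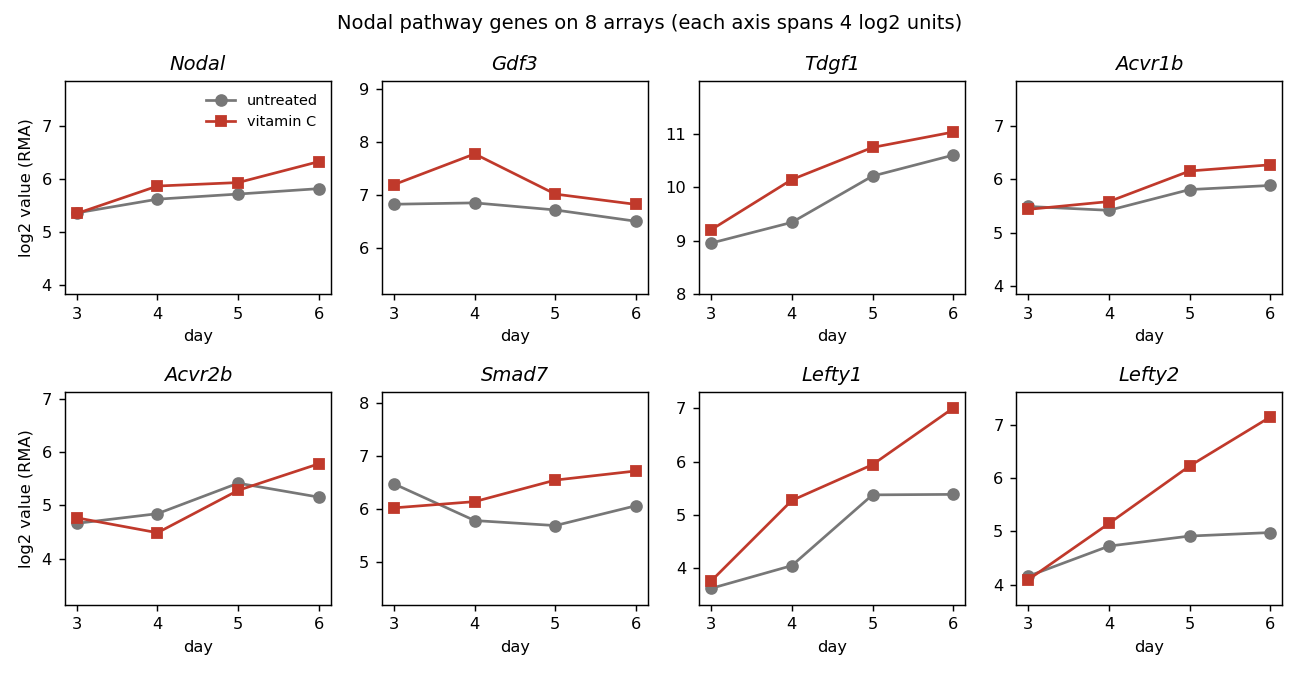
Log2 values (RMA) of the 8 genes by day, with untreated cells as grey circles and cells with vitamin C as red squares; each point is 1 array and each vertical axis spans 4 log2 units. Lefty2 reached 7.15 with vitamin C on day 6 against 4.98 in the untreated array of that day, while Gdf3 was highest with vitamin C on day 4 (7.77).

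Lefty1, the antagonist gene that in the mouse embryo is known from the midline and the left side, rose in both treatments. In untreated cells its log2 values were 3.62, 4.05, 5.38 and 5.39 on days 3, 4, 5 and 6, and with vitamin C they were 3.76, 5.27, 5.94 and 7.01. The 2 arrays of day 3 were the lowest and the arrays with vitamin C of days 5 and 6 lay above all untreated arrays, while the groups overlapped below. Its largest step came between days 4 and 5 without vitamin C (2.51-fold) and between days 3 and 4 with it (2.85-fold). The untreated value of day 5 lay within 0.10 of the value with vitamin C of day 4, closer than the residual SD of 0.24. From day 5 to day 6 the untreated value moved by 0.01 and that with vitamin C by 1.06. On day 6 Lefty1 stood 3.40-fold above its day 3 value without and 9.48-fold above it with vitamin C. A rise of at least 2-fold was seen in 1.18% of all genes without and 3.30% with vitamin C.

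Lefty2, the antagonist gene known from the left lateral plate of the mouse embryo, separated the treatments most by day 6. Untreated arrays read 4.16, 4.72, 4.91 and 4.98 on days 3 to 6, and arrays with vitamin C read 4.10, 5.15, 6.23 and 7.15. The arrays of day 3 were again the lowest, and from day 4 onwards each array with vitamin C lay above all 4 untreated arrays. The differences on the 4 days were -0.06, 0.43, 1.32 and 2.17, of which the last is 4.5-fold (1.51% of all genes were at least 2-fold higher on that day, as were Lefty1 and Lefty2). With vitamin C the step from each day to the next was near 2-fold (2.08, 2.11 and 1.89), while the untreated steps shrank from 1.48-fold to 1.14-fold and 1.05-fold. In order of level, 5 of the 7 gaps between neighbouring arrays were wider than the residual SD of 0.15. The gaps that were not lay between the 2 arrays of day 3 and between the untreated arrays of days 5 and 6.

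Both Lefty genes encode close relatives that lie near each other on chromosome 1, and whether their probes read 1 gene alone is uncertain. Their values correlated with r = 0.935 over the 8 arrays, which share the course of time. They nevertheless differed in the untreated series, where Lefty1 rose by 1.76 and Lefty2 by 0.82 from day 3 to day 6 on the log2 scale, a difference between the genes that was not tested.

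Tdgf1, the co-receptor gene, rose steadily in both treatments. Its log2 values were 8.95, 9.34, 10.21 and 10.60 without and 9.20, 10.15, 10.75 and 11.04 with vitamin C on days 3 to 6. Vitamin C gave the higher value on all 4 days, by 0.25, 0.80, 0.54 and 0.43, and the groups overlapped because the untreated arrays of days 5 and 6 lay above that with vitamin C of day 4. The untreated value of a day differed from the value with vitamin C of the day before by 0.14, 0.07 and -0.14, each less than the residual SD of 0.17. From day 3 to day 6 it stood 3.14-fold higher without and 3.57-fold higher with vitamin C.

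Nodal, the ligand gene, moved less. Its log2 values were 5.36, 5.62, 5.71 and 5.82 without and 5.35, 5.87, 5.93 and 6.32 with vitamin C. The arrays of day 3 were level between treatments, and the 3 later arrays with vitamin C lay above all untreated arrays. Of the 7 gaps between neighbours in the order of levels, 2 were wider than the residual SD of 0.14, those above the arrays of day 3 and below that with vitamin C of day 6. The difference on day 6 was 0.51, or 1.42-fold.

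The starts of Nodal and Tdgf1, which both rose with day in the arrays with vitamin C, are shown. Acvr1b and Acvr2b rose there as well, and their starts were examined but are not shown. Tdgf1 rose without vitamin C too, by 0.58 against 0.61 per day, and the other ligand gene, Gdf3, did not rise. RefSeq promoters (GRCm38.p6, 250 bases before to 50 after the start) were examined for 4 of the 8 genes, Nodal, Tdgf1, Acvr1b and Acvr2b. None was given for Lefty1, Lefty2 and Gdf3, and Smad7 was left out of the search. Capitals mark matches on either strand to the letters AATNNACA (core of FOXH1 sites), GTCTG (Smad box), GGGCGTGG (KLF or SP type) and ATGCAAAT (octamer), none of which overlap here.
Tdgf1, chr9:110946109-110946408, minus strand: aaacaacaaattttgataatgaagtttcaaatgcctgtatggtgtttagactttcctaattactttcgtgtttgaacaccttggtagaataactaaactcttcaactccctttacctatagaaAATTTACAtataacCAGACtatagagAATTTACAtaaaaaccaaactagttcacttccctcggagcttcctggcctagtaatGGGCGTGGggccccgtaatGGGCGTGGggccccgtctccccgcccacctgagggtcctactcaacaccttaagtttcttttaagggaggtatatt
Nodal, chr10:61417722-61418021, plus strand: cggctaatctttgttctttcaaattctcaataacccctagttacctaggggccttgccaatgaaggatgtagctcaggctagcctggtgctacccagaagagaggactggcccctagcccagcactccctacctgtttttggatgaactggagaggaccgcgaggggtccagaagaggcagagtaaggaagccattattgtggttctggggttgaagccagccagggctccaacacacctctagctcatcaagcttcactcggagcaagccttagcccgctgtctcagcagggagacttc

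The Tdgf1 window held 2 matches to the FOXH1 core on either side of 1 Smad box, and 2 matches to the KLF or SP type in a repeated stretch nearer the start. Of 32851 promoters in the RefSeq table, 12.2% held the FOXH1 core, 49.6% the Smad box, 5.33% the KLF or SP type and 1.74% the octamer at least once. The Nodal and Acvr1b windows held none of the 4, and Acvr2b held 1 Smad box. These are matches of letters in a short window. GC content was 41.7% for Tdgf1, 54.0% for Nodal, 73.3% for Acvr2b and 79.7% for Acvr1b, against a median of 52.7% over the table.

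Gdf3, the second ligand gene, had another course. Its log2 values were 6.83, 6.85, 6.72 and 6.51 without and 7.20, 7.77, 7.02 and 6.83 with vitamin C on days 3 to 6. The 3 arrays with vitamin C of days 3, 4 and 5 lay above all untreated arrays, and that of day 6 lay among them. The highest value fell on day 4 with vitamin C, where the difference was 0.92 (1.89-fold) against 0.30 to 0.37 on the other days. Only that array stood apart from its neighbour in level by more than the residual SD of 0.22. Gdf3 was the one member with its highest value outside day 6 with vitamin C. The other 7 members peaked there, as did 14.1% of all genes.

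The receptor genes changed by less than the antagonists. Acvr1b, the type I receptor gene, read 5.49, 5.42, 5.81 and 5.89 without and 5.44, 5.58, 6.16 and 6.27 with vitamin C. The arrays of days 5 and 6 were higher than those of days 3 and 4 in both treatments, and those of days 5 and 6 with vitamin C lay above all untreated arrays. Acvr2b, the type II receptor gene, read 4.66, 4.85, 5.42 and 5.16 without and 4.77, 4.49, 5.28 and 5.78 with vitamin C. Of the arrays with vitamin C, that of day 6 lay above all untreated arrays and the others lay among or below them. The daily difference was 0.10, -0.36, -0.13 and 0.63, on both sides of 0.

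Smad7, the inhibitory Smad gene, went in opposite directions at first. Untreated arrays read 6.47, 5.78, 5.69 and 6.06, and arrays with vitamin C read 6.02, 6.14, 6.54 and 6.72. The untreated array of day 3 was thus higher than the 3 later ones, while the arrays with vitamin C were higher on each day than on the day before. The daily difference was -0.45 on day 3 and 0.36, 0.85 and 0.65 afterwards. Leaving out the untreated array of day 3 turned the untreated slope from -0.13 to 0.14 per day.

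**Figure D2:**
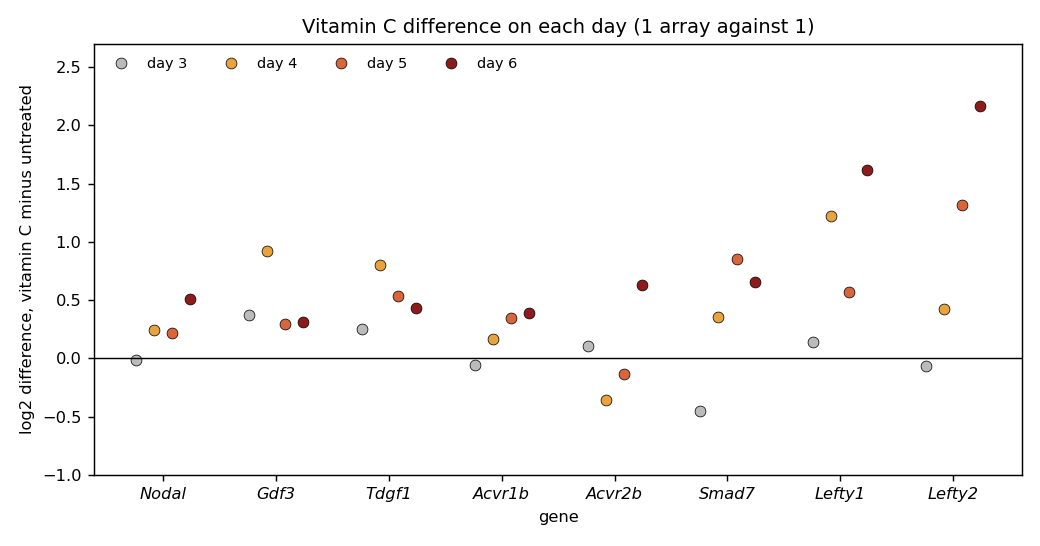
Log2 difference between the array with vitamin C and the untreated array of the same day for each gene (1 array against 1, no error). The points of Lefty2 run from -0.06 on day 3 to 2.17 on day 6, those of Tdgf1 and Gdf3 are all above 0 with the largest on day 4, and those of Acvr2b lie on both sides of 0.

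The first comparison asked whether vitamin C shifted expression over the 4 days as a whole. All 8 members had estimates above 0, with a median of 0.41 on the log2 scale against -0.01 for all genes, and none passed in limma with Benjamini-Hochberg adjustment (0.752% of all genes passed, 0.537% upwards). At an unadjusted p under 0.05 there were 4 members, Lefty1, Lefty2, Tdgf1 and Gdf3, where 12.7% of all genes had one. Lefty2 differed by 0.96 (95% interval 0.28 to 1.64, adjusted p = 0.214) and Lefty1 by 0.89 (0.40 to 1.37, adjusted p = 0.111). Lefty2 had a SD of 0.99 and Lefty1 one of 0.66 between the daily differences, and that spread enters the error of this test.

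Tdgf1 differed by 0.51 (95% interval 0.24 to 0.77, limma adjusted p = 0.103) and Gdf3 by 0.48 (0.18 to 0.77, adjusted p = 0.157). Intervals of the other members included 0, with 0.35 for Smad7 (-0.08 to 0.79), 0.24 for Nodal (-0.02 to 0.50), 0.21 for Acvr1b (-0.05 to 0.47) and 0.06 for Acvr2b (-0.29 to 0.41). Lefty1, Tdgf1 and Gdf3 were higher with vitamin C on all 4 days, which held for 9.29% of all genes. Lefty1 passed without day 3 (1.14, adjusted p = 0.0317), and Tdgf1 passed with the trend and robust options of eBayes (adjusted p = 0.0121). Leaving out day 6 turned Acvr2b to -0.13.

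Feeder or fibroblast markers moved beside this comparison. Their median daily differences were -0.51, -0.66, -0.44 and -0.21 in the order of the days. With the mean of these markers in place of day in the model, the estimate was 0.35 for Lefty2, 0.66 for Gdf3, 0.29 for Smad7 and 0.02 for Nodal. It was -0.031 for Lefty1, -0.18 for Tdgf1, -0.049 for Acvr1b and -0.26 for Acvr2b, and no member passed. Only 14 of all genes passed with this setting, and the markers themselves followed the day, so their part in the differences was not tested.

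The second comparison asked whether the vitamin C difference changed from day 3 to day 6. It grew for Lefty2, by 0.76 ± 0.09 per day on the log2 scale (moderated SE, 95% interval 0.55 to 0.97, limma adjusted p = 0.0248), and the other 7 members did not pass (0.0652% of all genes passed, all upwards, and 5.74% had an unadjusted p under 0.05 downwards). This growth was already known when the genes were chosen and is no independent support. It passed without the array with vitamin C of day 4 (adjusted p = 0.048) and missed the threshold without each of the other 7 arrays. The value was then 0.65 to 0.90 per day, with adjusted p-values from 0.0588 without the untreated array of day 5 to 0.265 without that of day 6. With 7 arrays 0 to 29 of all genes passed, against 13 with all 8. Comparing days 5 and 6 with days 3 and 4 gave a growth of 1.56 (adjusted p = 0.374), and no gene passed in that form.

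Smad7 and Lefty1 came next, each with 0.38 per day (95% intervals 0.09 to 0.67 and 0.05 to 0.71, limma adjusted p = 0.330 and 0.378). Acvr2b had 0.18, Nodal 0.15, Acvr1b 0.15, Tdgf1 0.03 and Gdf3 -0.08 per day, with intervals that included 0. The interval for Tdgf1 ran from -0.21 to 0.27 per day, so the direction of any change was not settled. The sign of its estimate changed in 5 of 17 alternative settings. Whether the growth for Lefty2 was larger than that for Lefty1 was not tested.

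**Figure D3:**
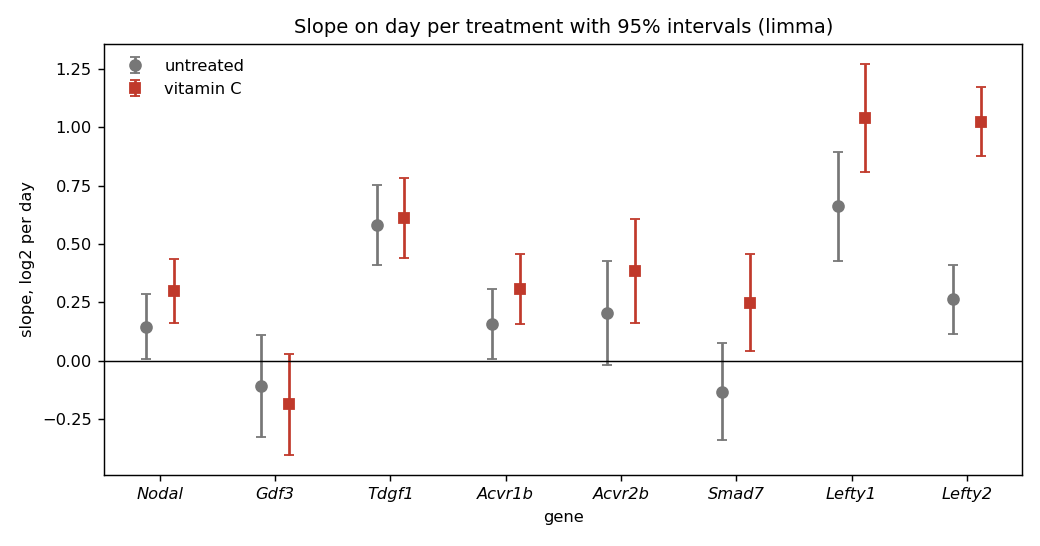
Slope on day in log2 units per day from limma for each gene, untreated (grey circles) and with vitamin C (red squares), with 95% intervals from moderated standard errors. The intervals of Lefty2 lie apart (0.12 to 0.41 without and 0.88 to 1.17 with vitamin C), and those of Tdgf1 nearly coincide (0.41 to 0.75 and 0.44 to 0.78).

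The third comparison followed the cells in time within each treatment. With vitamin C, 6 of the 8 members rose and 0 fell, where 8.64% of all genes passed, 5.25% upwards and 3.39% downwards. At an unadjusted p under 0.05 there were 7 members, against 24.9% of all genes. Lefty1 rose by 1.04 ± 0.11 per day (limma adjusted p = 0.000564), Lefty2 by 1.02 ± 0.07 (adjusted p = 8.65e-05) and Tdgf1 by 0.61 ± 0.08 (adjusted p = 0.00171). Leaving out any 1 array kept all 3 past the threshold, with slopes of at least 0.87 for Lefty1 and 0.45 for Tdgf1.

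Acvr2b rose by 0.38 ± 0.10 per day (limma adjusted p = 0.042), Acvr1b by 0.31 ± 0.07 (adjusted p = 0.0203) and Nodal by 0.30 ± 0.06 (adjusted p = 0.0166). Nodal and Acvr1b missed the threshold without the array with vitamin C of day 3 (adjusted p = 0.213 and 0.111) or of day 6 (adjusted p = 0.201 and 0.144). Acvr2b missed it without the untreated array of day 3 or day 4 (adjusted p = 0.0644 and 0.0631), without that with vitamin C of day 5 or day 6 (adjusted p = 0.0812 and 0.466), and after quantile normalization (adjusted p = 0.0591). Smad7, with 0.25, and Gdf3, with -0.19 per day, did not pass, and Gdf3 passed downwards without the array with vitamin C of day 3 (-0.47, adjusted p = 0.0405).

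In untreated cells 2 of the 8 members rose, Lefty1 by 0.66 ± 0.11 per day (limma adjusted p = 0.0132) and Tdgf1 by 0.58 ± 0.08 (adjusted p = 0.00555), where 1.75% of all genes passed, 0.782% upwards. Both missed the threshold without the untreated array of day 3 (adjusted p = 0.194 and 0.102) or of day 6 (adjusted p = 0.136 and 0.233), with slopes that stayed at 0.60 or above for Lefty1 and 0.56 or above for Tdgf1. Lefty2 had 0.26 per day (adjusted p = 0.0818), Acvr2b 0.20, Acvr1b 0.16, Nodal 0.15, Gdf3 -0.11 and Smad7 -0.13, none of which passed. Lefty1, Lefty2, Tdgf1 and Nodal were higher on each day than on the day before in both treatments, as were 1.79% of all genes. Within vitamin C alone this held for 6 members and 7.59% of all genes, and within untreated cells for 4 members and 8.83%.

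The other genes of the pathway were taken from fixed lists. Of 6 measured genes of other ligands and their processing, Inhba, which encodes an activin subunit, fell in both time courses, by 0.68 ± 0.09 per day without and 0.39 ± 0.09 with vitamin C (limma adjusted p = 0.00425 and 0.0206). Its log2 values were 7.20, 6.13, 5.78 and 5.05 without and 6.10, 5.28, 5.00 and 4.89 with vitamin C, so that it was lower with vitamin C on each day. The slope of Nodal passed upwards with vitamin C alone, and a link between the courses of these genes was not tested. The difference of Inhba over days was -0.73 (adjusted p = 0.0763). Of all genes 0.968% fell without and 3.39% with vitamin C. The other 5 genes of this list did not pass any test, among them the convertase gene Pcsk5 with -0.21 over days.

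Of 6 other receptors and co-receptors none passed any of the 4 tests in limma, while 1 to 2 had an unadjusted p under 0.05 in each. Of all genes 12.7% had one over days, 11.3% for the growth of the difference, 17% for the untreated slope and 24.9% for the slope with vitamin C. Over days that was Cfc1, a relative of Tdgf1 that encodes the co-receptor Cryptic, with 0.35 over days (adjusted p = 0.209). Tgfbr2, the type II receptor gene for TGF-beta, had -0.19. Of 7 signal transducers none passed either, with 1 to 2 at an unadjusted p under 0.05 in each test, beside the same shares of all genes. Over days these were Foxh1, the DNA-binding partner of the activated Smads, with 0.55 (adjusted p = 0.222), and Zfyve9, which encodes an anchor of Smads at endosomes, with -0.42 (adjusted p = 0.279).

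Among 6 extracellular antagonists, Cer1 moved most like Lefty1 (r = 0.991 over the 8 arrays). It encodes a secreted antagonist of Nodal and BMP ligands. Its log2 values were 3.21, 4.05, 5.11 and 5.23 without and 3.53, 5.29, 5.82 and 6.64 with vitamin C, lowest on day 3 in both and higher with vitamin C on each day. It rose by 0.71 ± 0.11 per day without and 0.99 ± 0.11 with vitamin C (limma adjusted p = 0.014 and 0.00115). Its difference over days was 0.92 (adjusted p = 0.0576). Unlike that of Lefty2, this difference did not pass in the test of its growth, with 0.27 per day (adjusted p = 0.561). Tmeff1, which encodes a membrane protein known to inhibit Nodal through Cripto in frog embryos, rose by 0.23 ± 0.06 per day with vitamin C (adjusted p = 0.037). Thus 2 of the 6 rose with vitamin C and 1 without, beside 5.25% and 0.782% of all genes. The remaining 4 did not pass. Among these was Fst, named after its values were seen, which encodes the activin-binding protein follistatin. It was lower with vitamin C on all 4 days, with -0.47 over days (adjusted p = 0.149), and its slopes were -0.28 without and -0.22 with vitamin C (adjusted p = 0.0937 and 0.0935).

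Of 11 intracellular inhibitors, Skil, which encodes the Smad co-repressor SnoN, rose with vitamin C by 0.35 ± 0.08 per day (limma adjusted p = 0.0197) and 10 did not pass. Of all genes 8.64% passed in that test, 5.25% upwards. The smallest p over days belonged to Drap1, with 0.20, and Smurf1, with 0.14, and neither passed (adjusted p = 0.479 and 0.657). In the list as a whole the median slope with vitamin C was 0.01 per day, against 0.35 for the 8 members and -0.02 for all genes.

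Of 8 measured embryonic target genes, 5 rose with vitamin C, where 5.25% of all genes rose, and 3 without it, where 0.782% rose, while 3 passed in neither time course. Lhx1, a transcription factor gene of the organiser, rose by 0.75 ± 0.08 per day with and 0.49 ± 0.08 without vitamin C. Eomes, a T-box gene of the primitive streak, rose by 0.45 and 0.37 and the growth factor gene Fgf8 by 0.30 and 0.39, with and without vitamin C. Fgf5, a growth factor gene of the epiblast after implantation, rose with vitamin C by 0.72 and the endoderm gene Sox17 by 0.47. No target gene passed over days in limma, where 0.752% of all genes passed, and 0 had an unadjusted p under 0.05, against 12.7% of all genes. In the growth of the difference none passed either, where 0.0652% of all genes passed, and 3 had an unadjusted p under 0.05, against 11.3%.

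Markers of other cell types moved in the same time courses, beside shares of all genes of 5.25% up and 3.39% down with vitamin C and of 0.782% up and 0.968% down without. Of the target genes, Sox17 and Fgf5 stand on these marker lists as well. Of 8 endoderm markers, 4 rose with vitamin C (Sox17, Gata4, Gata6 and Cxcr4) and 0 without, with 4 at an unadjusted p under 0.05 without it. The other 4 did not pass with vitamin C, with slopes of 0.10 for Foxa2, -0.04 for Sox7, -0.06 for Ttr and -0.21 for Afp. The mean over the 8 ran from 4.25 to 4.98 on days 3 to 6 with vitamin C, against 4.10 to 4.59 without. Of 5 primed epiblast markers, 3 rose with vitamin C, Fgf5, Otx2 and Krt18, the last of which is also a general epithelial gene, and 2 without, Otx2 and Krt18. Pou3f1 and Zic2 did not pass, with slopes with vitamin C of 0.17 and -0.12. The list mean ran from 6.53 to 8.23 with vitamin C against 6.24 to 7.30 without. With vitamin C it leaned most on Krt18, which rose by 4.26 from day 3 to day 6 against 1.94 without. Otx2 rose less with vitamin C than without (1.72 against 2.16). Of 10 markers of pluripotent cells 7 rose with vitamin C and 2 without, and of 14 feeder or fibroblast markers 6 fell with vitamin C and 8 without. Of 3 measured blood cell markers Csf1r and Cd68 rose with vitamin C and 0 without, with 1 at an unadjusted p under 0.05 without it, while Ptprc, which defines white blood cells, stayed between 2.56 and 3.30. Over the 8 arrays, r with the fibroblast marker mean was -0.92 for Tdgf1, -0.87 for Lefty1, -0.74 for Lefty2 and 0.09 for Gdf3, with time shared by all. With that mean added to the slope model, a setting added after the values were known, no gene passed, and the slope with vitamin C was 1.11 for Lefty1, 1.25 for Lefty2 and 0.60 for Tdgf1 (adjusted p = 0.354, 0.0919 and 0.493). The part of these cell types in the rise of the members was not tested.

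**Figure D4:**
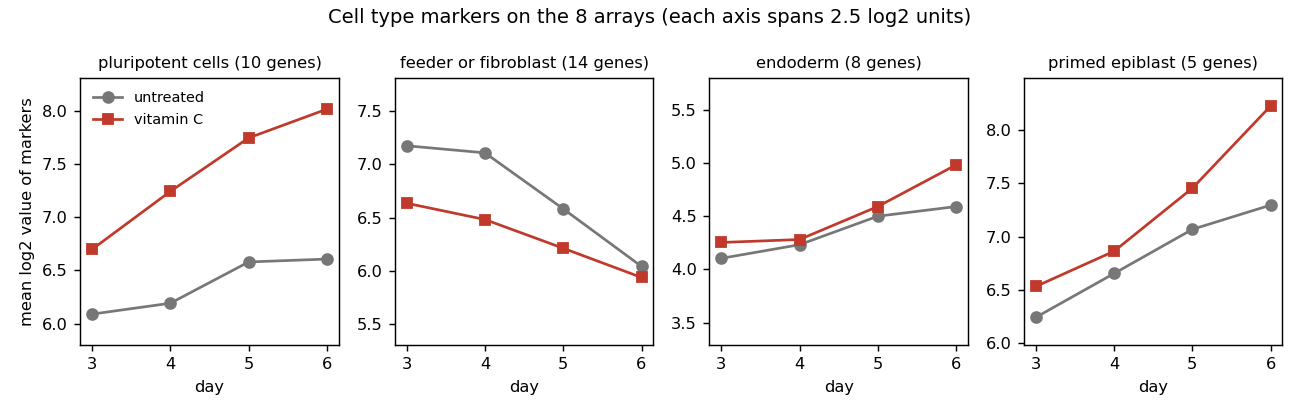
Mean log2 value of the measured markers of pluripotent cells, feeder cells or fibroblasts, endoderm and primed epiblast by day, untreated (grey circles) and with vitamin C (red squares); each point is 1 array and each vertical axis spans 2.5 log2 units. The mean of the pluripotency markers was higher with vitamin C on every day, though single markers such as Pou5f1 were not, and the means of the fibroblast markers ended close together on day 6.

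Likeness of pattern was measured by Pearson's r over the 8 arrays among 671 named genes with an SD of at least 0.5. Nearest to Lefty1 were Cer1 (0.991), Grb7 (0.977) and Rbpms2 (0.973), and nearest to Lefty2 were Atp1b1 (0.985), Rec8 (0.984) and Gldc (0.984). Tdgf1 was nearest to Pim2 (0.987), Elf3 and Dock6 (both 0.984), and Nodal to Cer1 (0.972), Apol7a (0.971) and Lefty1 (0.967). Acvr1b lay nearest to the claudin gene Cldn3 (0.994), Sprr1b (0.986) and Ccpg1 (0.980), and Acvr2b to Fgf5 (0.939), Cecr2 (0.935) and Fndc3c1 (0.925). An r of at least 0.9 was common because many genes followed the day: 149 of the 671 had one with Lefty2 and 173 with Acvr1b.

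Gdf3 and Smad7 had few genes like them. Gdf3 was nearest to Serpina1c (0.909), Kyat3 (0.832) and Dimt1 (0.782), with 1 gene at 0.9 or above. Smad7 was nearest to the keratin gene Krt6b (0.899), Pnma5 (0.896) and the keratin gene Krt1 (0.892), with 0 genes at 0.9 or above. Among the members themselves, r with Lefty1 was 0.971 for Tdgf1, 0.967 for Nodal, 0.931 for Acvr1b, 0.783 for Acvr2b, 0.447 for Smad7 and -0.09 for Gdf3.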

How the data were processed

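The deposited values are on a log2 scale and were computed by the authors. The submitters' processing notes name RMA and Partek, without versions. Per the labels' protocols, 100 ng of total RNA were labelled for each array. The scale was read from the values, whose largest was 13.8. Of 28853 probe sets, 21789 had 1 gene symbol and 1621 several. The probe set with the highest mean was used per gene (19938 genes). No detection calls were used, so low values are not called absent.

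Tests were moderated two-sided tests of limma 3.58.1 in R 4.3.3 over all genes, with Benjamini-Hochberg adjustment and 0.05 as the threshold. The test over days had day as a factor (3 residual degrees of freedom). The change per day and the slopes came from a slope on day per treatment (4 residual degrees of freedom). The residual SD is the moderated one of that model. Day pairs the arrays in the first test because it is in the labels. Deviations of the 2 arrays of a day correlated with 0.371, 0.180, 0.125 and 0.475 on days 3 to 6.

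Members and lists were chosen with earlier results of these data known. The genes named were all members, list genes past the threshold in any test, also the 2 with the smallest p over days where fewer than 2 of a list passed, and the 3 genes most like each member (SD of at least 0.5). List genes without a probe set of 1 symbol, such as Gdf1, Fbn1 and Hba-a1, are not analysed here. Promoters are from RefSeq (GRCm38.p6) and are in the direction of the gene. Plots and sequence searches used Python 3.11.15, matplotlib 3.10.9 and pandas 2.3.3. Alternatives were other normalization, filters, probe set rules, eBayes options, thresholds, codings of day, and fits without 1 day or 1 array.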

Additional observations from a re-analysis of the deposited data

Results flagged for a closer look

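The vitamin C difference of Lefty2 differed between days by the test of its change, with 0.76 per day on the log2 scale (limma adjusted p = 0.0248). It was -0.06 on day 3, smaller in size than the residual SD of 0.15, and above 0 on days 4, 5 and 6. The change per day missed the threshold in 9 of 17 alternative settings.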

How the results depend on the processing

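The arrays, 1 for each treatment and day, limit the precision, and signal over background is unknown. The number of members past the threshold over days was 0 and became 1 with the trend and robust options and 0 to 1 without 1 day. For the growth of the difference it was 1, and 0 for late against early days or with the feeder or fibroblast marker mean added (an alternative added once values were known), and 0 to 1 without 1 array. For the untreated slopes it was 2 (0 to 2 without 1 array) and for the slopes with vitamin C 6 (3 to 6), and 0 for both with the marker mean added, where no gene at all passed in any of the 3 tests. In that setting Lefty2 had a slope of 1.25 with vitamin C (adjusted p = 0.0919) and a growth of 0.61 (adjusted p = 0.237).

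With day left out, that is with no replicate block, 0 members and 17 genes passed over days, and with the replicate block on day 1 member and 20 genes passed in the growth, so the block changed no call of a member. Of all genes, 150 passed over days, 376 with the trend and robust options, 384 at a threshold of 0.1, 291 with day as a number, 14 with the marker mean in place of day and 3 to 286 without 1 day (9 without day 5). For the growth 13 passed, 21 after quantile normalization, 20 without the dimmest genes, 80 with the trend and robust options, 42 at 0.1, 0 for late against early days and 0 to 29 without 1 array. For the untreated slopes 349 passed, 156 of them upwards, and with centred arrays 385, 130 of them upwards. The count was 782 with the trend and robust options, 773 at 0.1 and 8 to 530 without 1 array, among them 74, 179 and 222 without the untreated array of day 3, 4 or 5. For the slopes with vitamin C 1722 passed, 2917 at 0.1 and 270 to 1680 without 1 array, among them 775 and 1112 without that with vitamin C of day 3 or 5.

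Some signs turned. Over days, with the marker mean in place of day, Lefty1 went from 0.89 to -0.031, Tdgf1 from 0.51 to -0.18, Acvr1b from 0.21 to -0.049 and Acvr2b from 0.06 to -0.26, so that estimates whose intervals lay above 0 were lost for Lefty1 and Tdgf1. The sign also turned for Acvr2b without day 6 (-0.13). In the growth Tdgf1 turned after quantile normalization (-0.0094), without the untreated array of day 3 (-0.021) or day 6 (-0.019), without that with vitamin C of day 3 (-0.14) and for late against early days (-0.042), and Gdf3 without that with vitamin C of day 6 (0.020). The untreated slope of Smad7 turned without the untreated array of day 3 (0.14). With the marker mean added, the slopes of Gdf3 (0.25 without and 0.027 with vitamin C), Acvr1b (-0.060 without) and Smad7 (-0.20 with vitamin C) turned. The cause was not tested. In all, 430 of the members' values under alternatives kept sign and side of the threshold, 30 no longer passed, 4 passed newly and 16 turned sign. Most of these values belong to results that did not pass at first, and the 30 could come only from those that did. Among those, 9 of 17 settings lost the growth of Lefty2 and 6 of 15 the slope of Acvr2b with vitamin C. For the slopes of Lefty1, Lefty2 and Tdgf1 with vitamin C it was 1 of 15 each.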
